A study of Mus musculus with 10 samples.

Results

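The transmembrane mucins Muc3, Muc13, Muc4 and Muc1 and the galectins Lgals2, Lgals4 and Lgals3 were followed in the crypts of Arid3a-deficient jejunum. These 7 genes were taken as a given list of membrane mucins and of galectins that bind them, out of 54838 genes in the files. All 7 passed the filter on low counts that left 14719 genes for testing. Muc3 rose 5.17-fold and Lgals3 rose 2.25-fold in cKO crypts, Muc1 was called lower at a level near 1 CPM (counts scaled to library size), and Muc13, Muc4, Lgals2 and Lgals4 did not pass the test. Without the 4 libraries that held stomach transcripts, Muc3 kept its call while Lgals3 and Muc1 lost theirs, with 2 WT and 4 cKO mice left.

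Transmembrane mucins are long, heavily O-glycosylated proteins anchored in the apical membrane, where they build the glycocalyx that covers the microvilli of enterocytes. Their extracellular part keeps bacteria and digestive enzymes away from the membrane, and the cytoplasmic tails of some of them bind PDZ scaffold proteins or signaling proteins. Galectins are small lectins that leave the cell without a signal peptide and crosslink glycoproteins and glycolipids through β-galactosides. In the intestinal epithelium they bind mucins at the surface, and they help to cluster brush border enzymes and carry them to the apical membrane.

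The libraries were made from polyadenylated RNA of jejunal crypts, 1 library per mouse, of 5 WT and 5 Arid3a cKO mice. The labels call the animals WT and Arid3a conditional KO. All mice, controls included, were given tamoxifen on 3 days and were killed 1 month after the first injection. Tamoxifen activates the VillinCre-ERT2 recombinase of the cKO mice, which is driven in intestinal epithelial cells, and removes the floxed Arid3a alleles there, so that other cells of the crypt preparation keep the gene. The sources used here do not say whether WT mice carried the recombinase, and they do not give the age of the mice. Animal identifiers of the 2 genotypes come from different stems, and colony or litter and genotype cannot be told apart. Nothing but separate identifiers shows how the replicates relate. The p-values set the difference between the genotypes against the spread between these mice, taken as independent.

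Expected counts per library summed to 27050455 to 28152743 in WT and to 28314069 to 31053622 in cKO, so that every cKO total was above every WT total. Arid3a itself was at 1.91 to 2.75 CPM (the count scaled to a common library size after TMM normalization) in WT and at 0.303 to 1.17 CPM in cKO, which fits a log2 fold change of -1.84 (SE 0.32, adjusted p = 0.00204). Adjusted p-values throughout are those of the quasi-likelihood test in edgeR, adjusted by Benjamini-Hochberg over all 14719 genes, and the threshold was 0.05. In this comparison 4167 genes, or 28.3%, were called changed, 15.6% higher and 12.7% lower in cKO, so a call is common background for any gene. The epithelial markers Vil1, Epcam, Cdh1, Krt8 and Krt20 summed to 4344 to 5164 CPM in WT and 5378 to 6158 CPM in cKO. Libraries also differed in what else they held. Transcripts of stomach mucous cells, Gkn1, Gkn2 and Tff1, summed to 623, 615 and 258 CPM in WT replicates 3, 4 and 5 and to 90.9 CPM in cKO replicate 4, and to between 0.0696 and 1.65 CPM in the other 6 libraries. Fold changes of the 7 genes and of the mucin, galectin, glycan and partner genes named beside them are therefore given with and without these 4 libraries, whereas TPM, transcript lengths and correlations are given over all 10; without them 2 WT and 4 cKO mice are left, 423 of 15229 genes (2.78%) were called, and Arid3a itself was at -1.69 on the log2 scale (adjusted p = 0.0773).

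Of the 7 genes, 3 were called, against the background of 28.3%, and the groups did not overlap for 1, Muc3, against 19.6% of all genes tested (12.0% with every cKO mouse above every WT mouse, 7.63% with every cKO mouse below). The 7 genes were chosen with earlier results of these data known, so nothing is drawn from these shares about the list. The plot of CPM per mouse shows all 70 values.

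**Figure D1:**
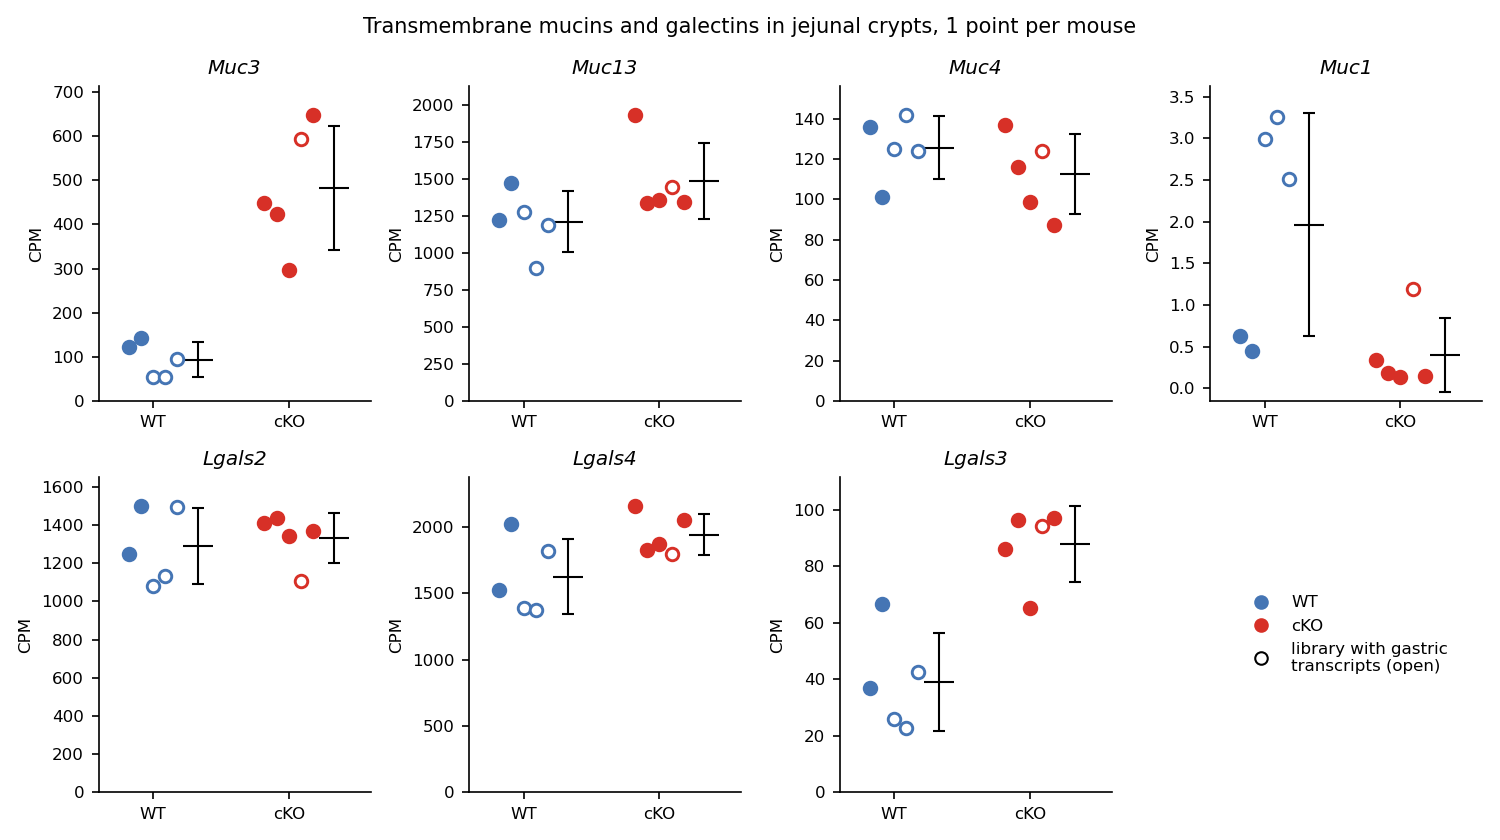
Level of each transmembrane mucin and galectin in CPM (y axis) in WT (blue) and cKO (red) crypts, with 1 point per mouse and the mean ± SD over 5 mice in black; open points are the 4 libraries with stomach transcripts. Muc3 lies between 53.7 and 142 CPM in WT and between 297 and 649 CPM in cKO, Lgals3 overlaps by 1 pair of mice, and the high Muc1 values are those of the open points.

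Muc3 encodes a large membrane mucin of the enterocyte glycocalyx. Its level was 122, 142, 53.7, 53.8 and 93.9 CPM in WT replicates 1 to 5 and 448, 423, 297, 594 and 649 CPM in cKO replicates 1 to 5. Every cKO mouse was above every WT mouse, and the lowest cKO mouse, replicate 3, was still above the highest WT mouse, replicate 2. Means were 93.2 ± 39.9 CPM in WT and 482 ± 141 CPM in cKO (SD, n = 5 each). The log2 fold change was 2.37 (SE 0.34, adjusted p = 0.00181), and the exact two-sided permutation test on log2(CPM + 0.5) gave p = 0.00794, the smallest that 5 mice against 5 allow. Leaving out any 1 mouse gave log2 fold changes of 2.23 to 2.58, all called. Without the 4 libraries with stomach transcripts Muc3 averaged 132 CPM in WT and 454 CPM in cKO, a log2 fold change of 1.77 (SE 0.31, adjusted p = 0.0444). The groups did not overlap, but with 2 WT and 4 cKO mice left this is weak. The share of all genes without overlap was not counted for these mice.

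The Muc3 gene model behind the counts lies on the minus strand at chr5:137134922-137149322 (GRCm38) and has 2 transcripts, of 1853 and 955 bases. RefSeq places the start of Muc3 16724 bases further upstream, so the counts cover the 3′ part of the RefSeq gene. The paralog Muc3a had means of 19.1 ± 2.9 CPM in WT mice and 22.4 ± 3.59 CPM in cKO mice (log2 fold change 0.23, adjusted p = 0.2). Expected counts of Muc3 and Muc3a were whole numbers in all 10 libraries, within 0.02 counts, so no fractional reads were assigned to either.

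Muc13, the most abundant of the 4 mucins, is a shorter membrane mucin found along the whole intestinal epithelium. It was at 1225, 1472, 1276, 897 and 1187 CPM in WT and at 1937, 1342, 1361, 1448 and 1349 CPM in cKO. The groups overlapped through WT replicate 2, and cKO replicate 1 stood above all other mice. Means were 1211 ± 207 and 1487 ± 255 CPM, a log2 fold change of 0.30 (SE 0.14, adjusted p = 0.122; exact permutation p = 0.0635), and no left-out mouse brought a call.

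Muc4 is a very large mucin whose EGF-like domains bind the receptor ErbB2. Its values were 136, 101, 125, 142 and 124 CPM in WT and 137, 116, 98.5, 124 and 87.3 CPM in cKO, and the groups overlapped in part, with WT replicate 4 above every cKO mouse and cKO replicates 3 and 5 below every WT mouse. Means of 125 ± 16.0 and 113 ± 20.0 CPM gave a log2 fold change of -0.16 (SE 0.12, adjusted p = 0.376). Muc4 on the plus strand of chromosome 16 shares 627 exonic bases with Muc20 on the minus strand. The expected counts of Muc4 were fractional in all 10 libraries, while the sum with Muc20 was whole in all 10, within 0.02 counts. RSEM thus divided reads between the pair, and since Muc20 received 6.52 to 36.24 counts against 2307.43 to 4254.06 for Muc4, this division bears on Muc20 and hardly on Muc4.

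Muc1, a mucin of glandular epithelia including the stomach, whose tail binds β-catenin, was near the floor of detection. Rounded counts were 18, 13, 88, 97 and 69 in WT and 10, 5, 4, 35 and 4 in cKO, or 0.627, 0.448, 2.99, 3.25 and 2.51 CPM in WT and 0.337, 0.184, 0.14, 1.19 and 0.151 CPM in cKO. The 4 highest values were those of the 4 libraries with stomach transcripts, in both genotypes, and cKO replicate 4 lay above WT replicates 1 and 2. Means of 1.96 ± 1.33 and 0.401 ± 0.448 CPM gave a log2 fold change of -2.27 (SE 0.72, adjusted p = 0.0381), while the exact permutation test gave p = 0.0556. The call held in 3 of 10 fits that left out 1 mouse, those without WT replicate 1, WT replicate 2 or cKO replicate 4. It was lost without any 1 of the other 7 mice, with adjusted p-values up to 0.0889. Without the 4 libraries with stomach transcripts Muc1 was at 0.537 CPM in WT mice and 0.203 CPM in cKO mice, with a log2 fold change of -1.38 (SE 0.52, adjusted p = 0.164). The groups of 2 WT and 4 cKO mice did not overlap, but the share of all genes without overlap was not counted for these mice. With the log2 level of Gkn1, Gkn2 and Tff1 as a covariate in all 10 libraries the log2 fold change was -1.15 (SE 0.30, adjusted p = 0.0238), in a fit that called 16.3% of genes. Deviations of Muc1 from its genotype mean had a Pearson correlation of 0.99 with those of the summed stomach transcripts over the 10 mice, a description of libraries that share their RNA. The part of the stomach transcripts in the Muc1 result was not tested beyond these fits.

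**Figure D2:**
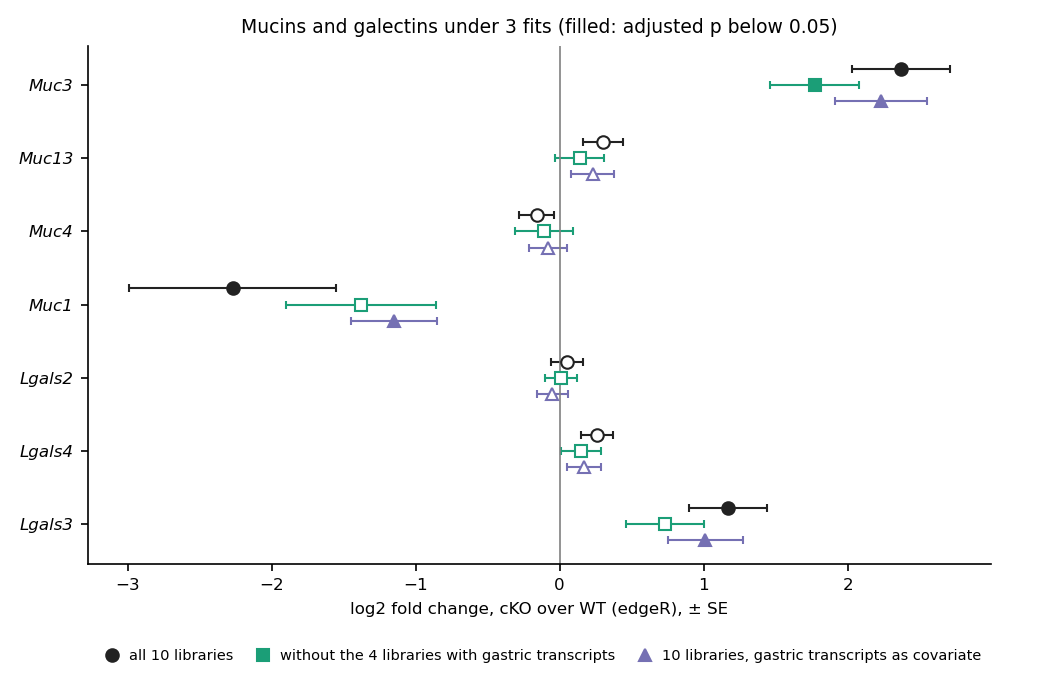
Log2 fold change of cKO over WT (x axis) for the 7 genes in 3 edgeR fits, with bars of ± 1 SE: all 10 libraries (circles), the 6 libraries without stomach transcripts (squares), and all 10 libraries with the stomach transcripts as a covariate (triangles). Filled points passed an adjusted p of 0.05; Muc3 is filled in all 3 fits, Lgals3 and Muc1 in 2, and the others in none.

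Measured per transcript length, Muc3 took a larger share of the 4 mucins in cKO. In TPM, which divides by length and compares levels between genes (mean ± SD over 5 mice), Muc13 was at 548 ± 82.4 in WT and 632 ± 119 in cKO, Muc3 at 71.2 ± 28.9 and 335 ± 100, Muc4 at 30.3 ± 2.33 and 28.2 ± 6.64, and Muc1 at 1.34 ± 0.685 and 0.36 ± 0.228. Muc3 thereby made up 13.7, 13.5, 6.24, 8.91 and 11.4% of the summed TPM of the 4 mucins in WT and 26.5, 32.8, 25.9, 38.7 and 43.0% in cKO. No cKO mouse had as small a Muc3 share as any WT mouse. The share of Muc13 was 84.3 ± 3.03% in WT and 63.8 ± 7.18% in cKO, again without overlap, and that of Muc4 was 4.77 ± 1.01% and 2.83 ± 0.479%. Within the same total the other shares must fall in sum where that of Muc3 grows, so these drops are no separate results. The ratio of Muc3 to Muc13 was 0.128 ± 0.0411 in WT and 0.540 ± 0.182 in cKO. For Muc3, TPM divides by the length of the gene model behind the counts, which covers the 3′ part of the RefSeq gene. Its level, share and ratio beside other genes depend on that model. The summed TPM of the 4 mucins was 518 to 781 in WT and 800 to 1180 in cKO.

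**Figure D3:**
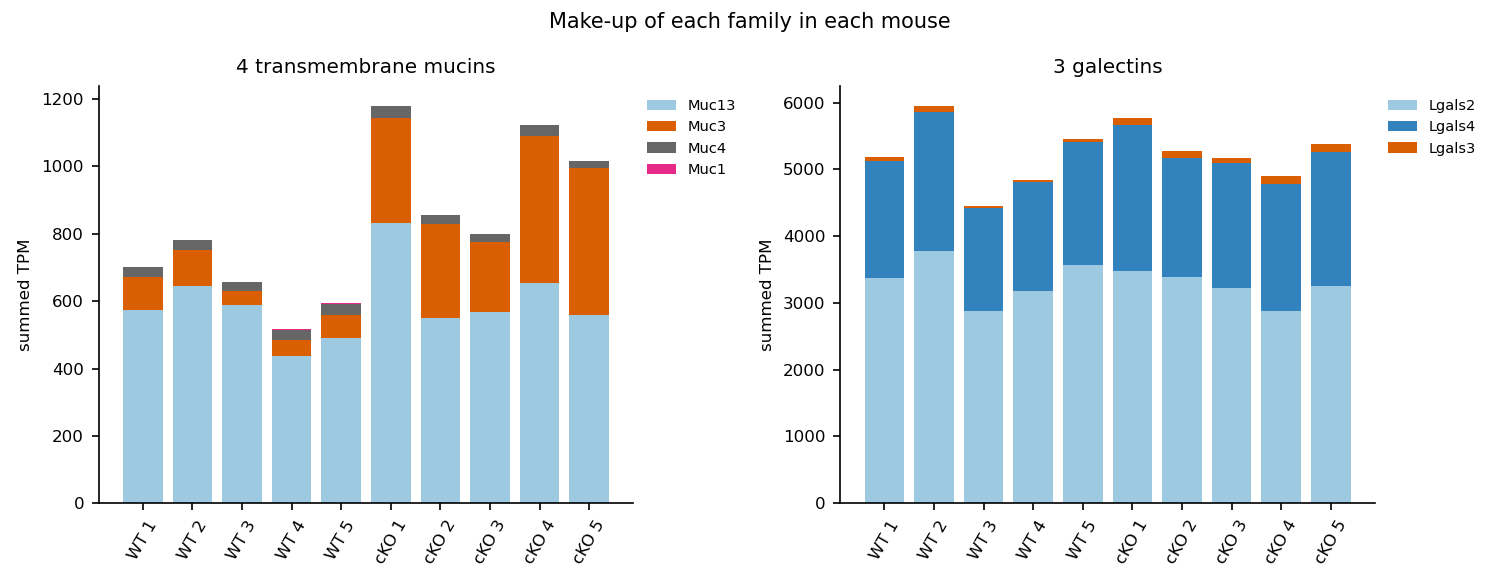
Stacked TPM of the 4 transmembrane mucins (left) and the 3 galectins (right) in each of the 10 mice; the y axes differ and both start at 0. The Muc3 segment takes 6.24 to 13.7% of the mucin bar in WT and 25.9 to 43.0% in cKO, while Lgals3 takes between 0.643 and 2.49% of the galectin bar; Muc1 is too low to be seen.

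Lgals2 is a small galectin with a single type of carbohydrate-binding domain and is abundant in the gastrointestinal tract. It was at 1247, 1498, 1081, 1130 and 1494 CPM in WT and at 1409, 1436, 1342, 1105 and 1366 CPM in cKO. The cKO values lay within the range of the WT values, and means of 1290 ± 198 and 1332 ± 132 CPM gave a log2 fold change of 0.05 (SE 0.11, adjusted p = 0.782; exact permutation p = 0.651). Its sign depended on the scaling, with -0.08 on library sizes without TMM.

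Lgals4 carries a pair of carbohydrate-binding domains in tandem, binds sulfatide, and clusters brush border enzymes in lipid rafts. Values were 1527, 2024, 1390, 1374 and 1819 CPM in WT and 2158, 1831, 1869, 1799 and 2057 CPM in cKO. WT replicates 2 and 5 lay within the cKO range and the other 3 WT mice below it. The log2 fold change was 0.26 (SE 0.11, adjusted p = 0.111; exact permutation p = 0.0635), from means of 1627 ± 285 and 1943 ± 156 CPM. Lgals4 was called only when WT replicate 2 was left out, at 0.35 with an adjusted p of 0.0225. Without the 4 libraries with stomach transcripts the genes that were not called had log2 fold changes of 0.14 (Muc13), -0.11 (Muc4), 0.01 (Lgals2) and 0.15 (Lgals4), and none of them passed.

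Lgals3, the chimera-type galectin with a collagen-like tail, binds branched N-glycans and mucins and is made by epithelial cells and by macrophages. It was at 37.0, 66.7, 26.1, 22.8 and 42.5 CPM in WT and at 86.1, 96.5, 65.2, 94.4 and 97.2 CPM in cKO. The groups overlapped by a single pair of mice, since WT replicate 2 lay just above cKO replicate 3. Means were 39.0 ± 17.4 and 87.9 ± 13.4 CPM, and the log2 fold change was 1.17 (SE 0.27, adjusted p = 0.0121; exact permutation p = 0.0159). Leaving out any 1 mouse gave 1.03 to 1.45, all called. Without the 4 libraries with stomach transcripts, Lgals3 was at 51.8 CPM in WT mice and 86.2 CPM in cKO mice, with a log2 fold change of 0.73 (SE 0.27) that did not pass (adjusted p = 0.194). With those transcripts as a covariate it was 1.01 and passed (adjusted p = 0.029). All 10 macrophage and leukocyte markers had log2 fold changes below 0, 3 of them called lower (C1qa, C1qb and C1qc). Their sum was 64.4 to 129 CPM in WT and 32.9 to 140 CPM in cKO, with overlap and with the highest sum of all mice in cKO replicate 4. Their part in the Lgals3 result was not tested.

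Per length, Lgals2 and Lgals4 were the highest of the 7 genes, while Lgals3 lay below Muc13 and Muc3. Lgals2 stood first in TPM (3354 ± 352 in WT, 3247 ± 230 in cKO), followed by Lgals4 (1772 ± 207 and 1946 ± 153), Muc13, Muc3, Lgals3 (50.4 ± 21.2 and 106 ± 17.0), Muc4 and Muc1. This order was the same in both genotypes. Each gene was above the next in 5 of 5 mice of each genotype, with the exception of Lgals3 over Muc4, which held in 4 of 5 WT mice, so these neighbors are not separated beyond their spread in WT. The step from Muc13 down to Muc3 was 7.69-fold in WT and 1.89-fold in cKO. Its size, and the place of Muc3 in the order, depend on the 3′ gene model used for Muc3. The summed TPM of the 3 galectins was 4449 to 5951 in WT and 4905 to 5769 in cKO, and Lgals3 held 0.951 ± 0.296% of it in WT and 2.01 ± 0.367% in cKO.

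Both genes that rose did so beside markers of villus enterocytes. The 10 markers of these cells (among them Apoa4, Apoa1, Slc5a1, Slc2a2 and Fabp1) summed to 1511 to 6097 CPM in WT and to 7360 to 13395 CPM in cKO, with 8 of 10 higher, none lower and a median log2 fold change of 1.55, against -0.03 over all genes tested. In the fit without the 4 libraries 2 of the 10 were called, and 0 of the enteroendocrine, tuft, Paneth, stem, goblet and stroma markers that follow. Summed enteroendocrine markers (2 of 4 higher, sums of 321 to 393 in WT and 421 to 652 CPM in cKO) also lay higher in every cKO mouse. So did summed tuft cell markers (2 of 4 higher, 76.2 to 85.7 and 86.5 to 99.0 CPM). Among the tested genes of these sums, Chgb and Dclk1 alone separated the groups, and the others overlapped. Summed Paneth cell markers (3 of 4 lower, 5730 to 10473 and 4145 to 5744 CPM) and stem cell markers (4 of 6 lower, 4806 to 7866 and 3780 to 5680 CPM) were lower with overlap. Singly, the Paneth cell markers Lyz1, Mptx2 and Mmp7 were lower in every cKO mouse than in any WT mouse, as were 7.63% of all genes tested. Ang4 and the stem cell markers overlapped. Of 8 goblet cell markers 1 was lower (2911 to 4022 and 3772 to 4473 CPM), and of 6 stroma markers none was called (18.4 to 98.9 and 18.1 to 154 CPM). These marker counts stand beside 15.6% called higher and 12.7% called lower among all genes tested. The part of any of these cell types in the rise of Muc3 and Lgals3 was not tested. In bulk RNA, more cells of a type and more RNA per cell cannot be told apart.

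As a description chosen after the values were seen, Muc3 was 3.05, 2.33, 2.29, 3.56 and 2.76% of the villus enterocyte sum in WT and 4.38, 4.31, 4.03, 4.44 and 5.06% in cKO, so its fold was larger than that of the summed markers. Lgals3 was 0.923, 1.09, 1.11, 1.51 and 1.25% of the sum in WT and 0.842, 0.985, 0.886, 0.704 and 0.757% in cKO, so its fold was smaller. These ratios are no test of how much of either change goes with cell content. The plot beside the marker sums shows Muc3 and Lgals3 along the villus enterocyte sum and Muc1 along the stomach transcripts.

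**Figure D4:**
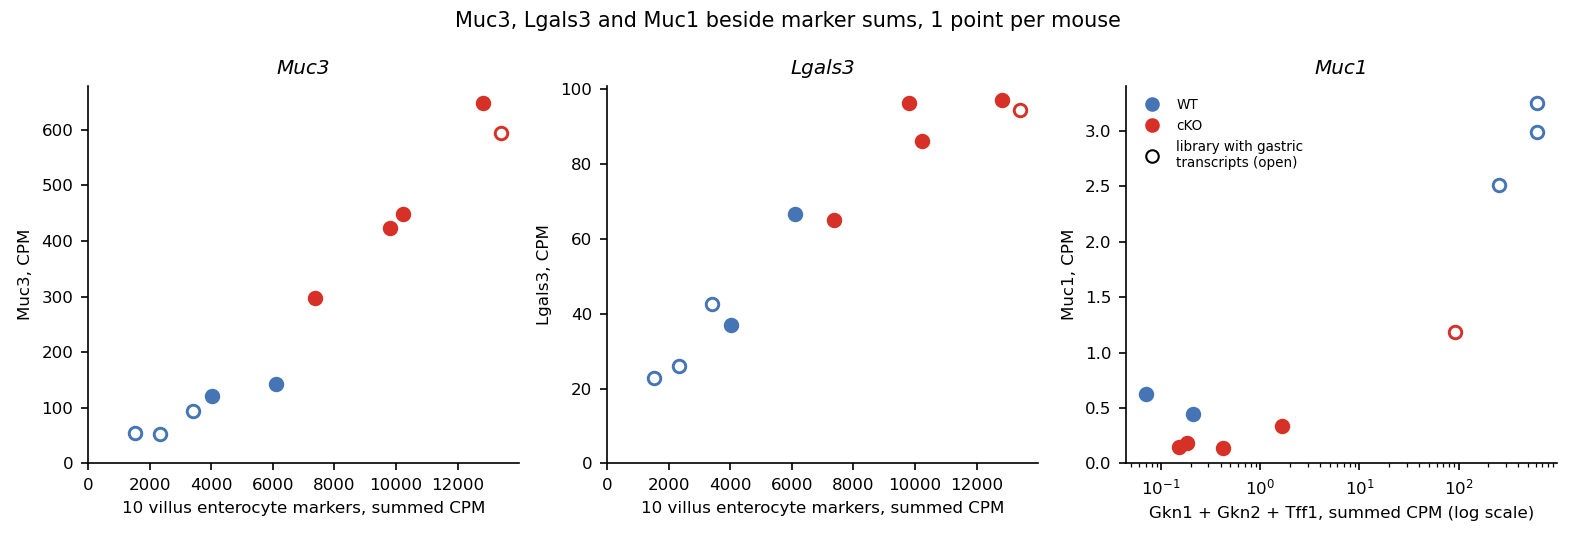
Muc3 (left) and Lgals3 (middle) in CPM against the summed CPM of 10 villus enterocyte markers, and Muc1 (right) against the summed CPM of Gkn1, Gkn2 and Tff1 on a log axis, with 1 point per mouse, WT in blue, cKO in red and the 4 libraries with stomach transcripts open. Marker sums reach 6097 CPM in WT and start at 7360 CPM in cKO, and Muc1 exceeds 1 CPM in the 4 open points alone.

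Among the mice of a genotype, Muc3 and Lgals3 also varied together. The deviations of log2 CPM from the genotype mean had a Pearson correlation of 0.87 for Muc3 with Lgals3, 0.84 for Lgals2 with Lgals4 and 0.82 for Lgals3 with Lgals4, over 10 mice whose libraries share depth and cell composition. Muc4 had correlations of -0.31 to 0.01 with Muc3 and Muc13 and of 0.51 with Muc1. With the summed stomach transcripts the correlation was -0.53 for Muc3, -0.54 for Lgals3, -0.34 for Muc13, -0.6 for Lgals2, -0.49 for Lgals4 and 0.43 for Muc4. The part of the stomach transcripts in these correlations was not tested. Of 8924 genes searched, those nearest to Muc3 were Ifit1bl2 and Bst1 (0.98 each), and to Lgals3 Acsl5, a long-chain acyl-CoA synthetase, and Cgref1 (0.98 each). Lgals4 was nearest to the clathrin adaptor subunit Ap2m1 and to Surf4, a cargo receptor of the endoplasmic reticulum (0.99 each), and Lgals2 to the mitochondrial genes Chchd3 (0.98) and Ndufs4 (0.97). Muc13 was nearest to Dirc2 (0.96) and Pef1 (0.95), Muc4 to Filip1l (0.88) and Tti1 (0.82), and Muc1 to the stomach genes Gkn2 and Tff1 (0.99 each).

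Isoform use was read from the mean transcript length that RSEM weights by abundance. Muc3 averaged 1796, 1786, 1812, 1718 and 1740 bases in WT and 1843, 1849, 1806, 1853 and 1850 bases in cKO, so that cKO mice were nearer to the longer transcript of 1853 bases, except that WT replicate 3 exceeded cKO replicate 3. The exact permutation p was 0.0159, and 0.254 after adjustment over 11860 genes with more than 1 transcript, of which 0 passed and 1545 had an unadjusted exact p below 0.05. Lgals4 averaged 1275 ± 22.4 and 1302 ± 8.38 bases (exact permutation p = 0.0476, adjusted 0.366). Muc4, with 8 annotated transcripts, was split among WT mice, at 6228, 6192 and 6341 bases in replicates 1, 3 and 4 and at 4247 and 4509 bases in replicates 2 and 5, while cKO mice lay between 4774 and 5182 bases (exact permutation p = 0.254). Muc13 stayed at 2942 bases in all mice, Lgals3 was at 1088 ± 16.8 and 1097 ± 8.46 bases, Lgals2 has 1 transcript, and Muc1 had too few counts for a length to be read.

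The upstream sequences of the 3 genes that were called, and of Lgals2 as the most abundant of the 7 per length, show what stands before their starts. HNF4 and HNF1 are transcription factors of enterocytes, and their sites are searched here as letters. Each run holds the 250 bases before the RefSeq start on the gene's strand (GRCm38.p6), 5′ to 3′, with capitals for matches to CAAAGTCC or CAAAGGTC for HNF4, to the HNF1 half-site GTTAAT, and to the core promoter letters TATAAA, each searched on both strands. In these 4 runs no match overlapped another.
Muc3, chr5:137166047-137166296, minus strand: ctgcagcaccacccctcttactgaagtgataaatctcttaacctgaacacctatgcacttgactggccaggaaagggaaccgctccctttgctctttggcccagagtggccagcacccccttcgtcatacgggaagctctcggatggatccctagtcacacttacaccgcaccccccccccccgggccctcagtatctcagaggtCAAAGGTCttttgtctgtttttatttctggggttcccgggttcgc
Lgals3, chr14:47373610-47373859, plus strand: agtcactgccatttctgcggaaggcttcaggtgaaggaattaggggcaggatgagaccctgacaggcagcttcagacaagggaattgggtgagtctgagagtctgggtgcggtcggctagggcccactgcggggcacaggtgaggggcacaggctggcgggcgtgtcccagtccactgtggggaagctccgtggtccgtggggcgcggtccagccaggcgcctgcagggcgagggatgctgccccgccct
Muc1, chr3:89228806-89229055, plus strand: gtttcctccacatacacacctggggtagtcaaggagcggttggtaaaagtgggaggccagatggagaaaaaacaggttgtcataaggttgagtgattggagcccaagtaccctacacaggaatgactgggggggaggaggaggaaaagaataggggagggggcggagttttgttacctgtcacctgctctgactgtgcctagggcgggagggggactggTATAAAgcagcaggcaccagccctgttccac
Lgals2, chr15:78855530-78855779, minus strand: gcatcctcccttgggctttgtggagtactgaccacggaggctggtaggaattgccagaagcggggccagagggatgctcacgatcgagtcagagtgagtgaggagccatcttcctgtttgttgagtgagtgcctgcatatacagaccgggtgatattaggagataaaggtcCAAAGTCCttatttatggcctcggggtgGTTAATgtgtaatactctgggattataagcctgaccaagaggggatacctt

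Muc3 held CAAAGGTC at positions -45 to -38 from its start, letters found on either strand in 1.01% of 32851 promoter windows. Lgals2, whose level did not change, held CAAAGTCC (1.2% of windows) at -79 to -72 and GTTAAT (6.43%) at -51 to -46. Muc1 held TATAAA (12.4%) at -31 to -26, and so did Muc4 at -36 to -31. Of the 2 RefSeq starts of Muc13, the second had CAAAGTCC on the minus strand at -185 to -178 and GTTAAT at -61 to -56. None of these letters was found before Lgals3 or Lgals4, and TTTATTG, a caudal-type site present in 4.2% of windows, was before none of the 7 genes. The RefSeq start of Lgals3 lies 6109 bases inside the gene model used for counting. These matches are letters in a window and were not tested against expression.

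The other galectins and mucins ranged from below 1 CPM to the level of Lgals9. Of 5 other galectins tested, 1 was called. Counts of called genes in this and the lists below stand beside 28.3% called among all genes tested, and no list was tested as a set. Lgals8, a tandem-repeat galectin that marks damaged vesicles, was higher in every cKO mouse than in any WT mouse and rose from 40.6 ± 3.98 to 56.9 ± 3.19 CPM (log2 fold change 0.49, SE 0.08, adjusted p = 0.00151). The count was 2 without WT replicate 1, WT replicate 4 or cKO replicate 4, and 3 on library sizes without TMM and in DESeq2. Lgals9 was at 521 ± 42.0 and 494 ± 91.9 CPM (-0.08), Lgals12 at 18.3 ± 2.56 and 16.0 ± 1.08 CPM (-0.19), and Lgals1, a stromal galectin, at 3.57 ± 1.61 and 1.73 ± 0.849 CPM (-1.04, adjusted p = 0.0687), while Lgalsl, a related protein, was at 0.18 on the log2 scale (adjusted p = 0.064). Without the 4 libraries with stomach transcripts Lgals8 was at 0.35 on the log2 scale (adjusted p = 0.062), Lgals1 at -1.30, Lgals9 at -0.14, Lgals12 at -0.12 and Lgalsl at 0.16, none called. Of 5 other membrane mucins and mucin-like proteins, Muc16 (1.34 ± 1.19 and 0.147 ± 0.160 CPM, log2 fold change -3.14, adjusted p = 0.0372) and Muc20 (0.801 ± 0.330 and 0.381 ± 0.0920 CPM, -1.06, adjusted p = 0.0302) were called lower at levels close to 1 CPM, and Muc20 shares reads with Muc4. Leaving out WT replicate 5, cKO replicate 2 or cKO replicate 3 left 0 of the 5 called. None was called without the 4 libraries either, with Muc16 at -4.31 (adjusted p = 0.0589) and Muc20 at -0.95 (adjusted p = 0.23) in 2 WT against 4 cKO mice. Podxl (-1.10, adjusted p = 0.0619; -1.01 without the 4 libraries) and Muc3a (0.23 and -0.01) did not pass, and Parm1, also not called, turned from -0.45 to 0.42. The secreted mucin Muc2 of goblet cells was at 266 ± 70.4 and 325 ± 39.3 CPM (log2 fold change 0.29, adjusted p = 0.229), and Muc6, of mucous neck cells and Brunner's glands, at 22.5 ± 22.5 and 8.95 ± 8.75 CPM (-1.33, adjusted p = 0.348). Neither direction held without the 4 libraries, where Muc2 was at -0.03 and Muc6 at 0.33.

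The glycans of these proteins are built by enzymes of the Golgi. Of 21 genes for O-glycan cores, extension and caps, 6 rose and none fell, and the median of their log2 fold changes was 0.17. The shares called here (6 of 21), among GalNAc transferases (3 of 10) and among N-glycan branching genes (4 of 11) are read against the 28.3% of all genes, and nothing is drawn from them about these lists. St3gal4, an α2,3-sialyltransferase, rose from 278 ± 151 to 650 ± 82.6 CPM (1.23, adjusted p = 0.0239), Gcnt4, a core 2 branching enzyme, from 36.2 ± 3.79 to 55.7 ± 6.81 CPM (0.62, adjusted p = 0.00149), and B3gnt7, which extends chains, from 17.2 ± 3.74 to 24.7 ± 3.44 CPM (0.52, adjusted p = 0.0192). The count was 3 without cKO replicate 1 or cKO replicate 5, and 1, Gcnt4 (0.58, adjusted p = 0.0347), without the 4 libraries, where St3gal4 was at 0.65 (adjusted p = 0.0544) and B3gnt7 at 0.39. Of 10 GalNAc transferases, which start O-glycans, Galnt1 (0.35, adjusted p = 0.00225) and Galnt6 (0.27, adjusted p = 0.0172) rose, Galnt12 fell by 0.34 on the log2 scale (adjusted p = 0.00435), and 7 did not pass. This count was 5 without WT replicate 2 and 0 without the 4 libraries, with Galnt1 at 0.28, Galnt6 at 0.18 and Galnt12 at -0.28. Of 11 genes listed around N-glycan branching, Mgat3 (0.59, adjusted p = 0.00242), Mgat4a (0.43, adjusted p = 0.00185) and the UDP-GlcNAc transporter Slc35a3 (0.37, adjusted p = 0.00791) rose. Man2a2 fell by 0.67 on the log2 scale (adjusted p = 0.0152). The listed enzymes act at different steps and no glycan was measured, so no direction for galectin ligands is drawn from them. Mgat5, whose branches bind Lgals3 well, was at 127 ± 14.5 and 134 ± 8.68 CPM (0.08). Mgat4a (0.42) and Slc35a3 (0.44) kept their calls without the 4 libraries, while Mgat3 (0.41), Man2a2 (-0.51) and Mgat5 (0.19) were not called. Gal3st1, which makes the sulfatide that Lgals4 binds, rose from 15.1 ± 3.3 to 23.4 ± 2.75 CPM (0.63, adjusted p = 0.0077), and was at 0.31 and not called without the 4 libraries. Ugt8a and Fa2h, listed with Gal3st1 for sulfatide synthesis, did not pass the filter on low counts. Ugt8a had means of 0.0816 CPM in WT and 0.0138 CPM in cKO, and Fa2h of 0.268 and 0.274 CPM. Sulfatide was not measured, and no direction for it is drawn from Gal3st1.

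Membrane mucins are held in microvilli by PDZ scaffolds and ezrin, and galectins carry brush border enzymes to them. Of 7 apical scaffold genes, 4 rose and 1 fell (median log2 fold change 0.66). These were Pdzk1 (25.7 ± 20.0 and 93.6 ± 32.2 CPM, 1.86, adjusted p = 0.035), the PDZ protein Slc9a3r1 (195 ± 75.0 and 418 ± 73.3 CPM, 1.10, adjusted p = 0.00886), Pdzd3 (0.84, adjusted p = 0.0208) and ezrin (Ezr, 0.66, adjusted p = 0.0017), while Slc9a3r2 was lower (-0.85, adjusted p = 0.00727). The count of 5 became 3 without WT replicate 3, WT replicate 5 or cKO replicate 5. It was 0 without the 4 libraries, with Pdzk1 at 0.93, Slc9a3r1 at 0.59, Pdzd3 at 0.34, Ezr at 0.43 and Slc9a3r2 at -0.83. All 8 brush border glycoproteins listed as galectin cargo rose, with a median log2 fold change of 1.62. Intestinal alkaline phosphatase (Alpi), itself one of the villus enterocyte markers, went from 344 ± 106 to 1221 ± 298 CPM (1.83, adjusted p = 0.000981), lactase (Lct) from 125 ± 82.8 to 474 ± 194 CPM (1.92, adjusted p = 0.0245) and cubilin (Cubn) from 13.4 ± 9.29 to 62.5 ± 35.3 CPM (2.22, adjusted p = 0.0222). The count was 5 without WT replicate 3, 4 without WT replicate 5 or cKO replicate 5, and 3 without the 4 libraries, these being Alpi (1.31), Sis (1.15) and Mgam (0.72), while Lct was at 1.02 and Cubn at 1.33. The rise of Muc3 thus lay above the median of its scaffold and of this cargo, and that of Lgals3 below the median of the cargo; these differences were not tested.

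Of 8 genes for partners of mucin tails and EGF domains, 3 rose and none fell. This count stands beside 28.3% called among all genes tested, and nothing is drawn from it about the list. Erbb3 went from 174 ± 34.5 to 279 ± 37.1 CPM (0.68, adjusted p = 0.00444), Src was at 0.28 (adjusted p = 0.00778) and Erbb2, the partner of Muc4, at 0.26 (adjusted p = 0.0208), while Ctnnb1, which binds the tail of Muc1, was at -0.01. On library sizes without TMM 1 of these 8 was called, and none was in the 2 WT and 4 cKO mice without the 4 libraries, where Erbb3 was at 0.57, Erbb2 at 0.25, Src at 0.18 and Ctnnb1 at 0.05. Of 5 proteases that can cleave mucins, the meprin subunits Mep1b (1.63, adjusted p = 0.0305) and Mep1a (1.23, adjusted p = 0.00348) rose, Mmp14 fell by 0.29 on the log2 scale (adjusted p = 0.0397), and Adam10 (0.12) and Adam17 (0.02) did not pass. Without WT replicate 1, WT replicate 3, cKO replicate 1 or cKO replicate 5, 1 of the 5 was called. None was without the 4 libraries, with Mep1b at 0.87, Mep1a at 0.77, Mmp14 at -0.27, Adam10 at 0.10 and Adam17 at 0.18.

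**Figure D5:**
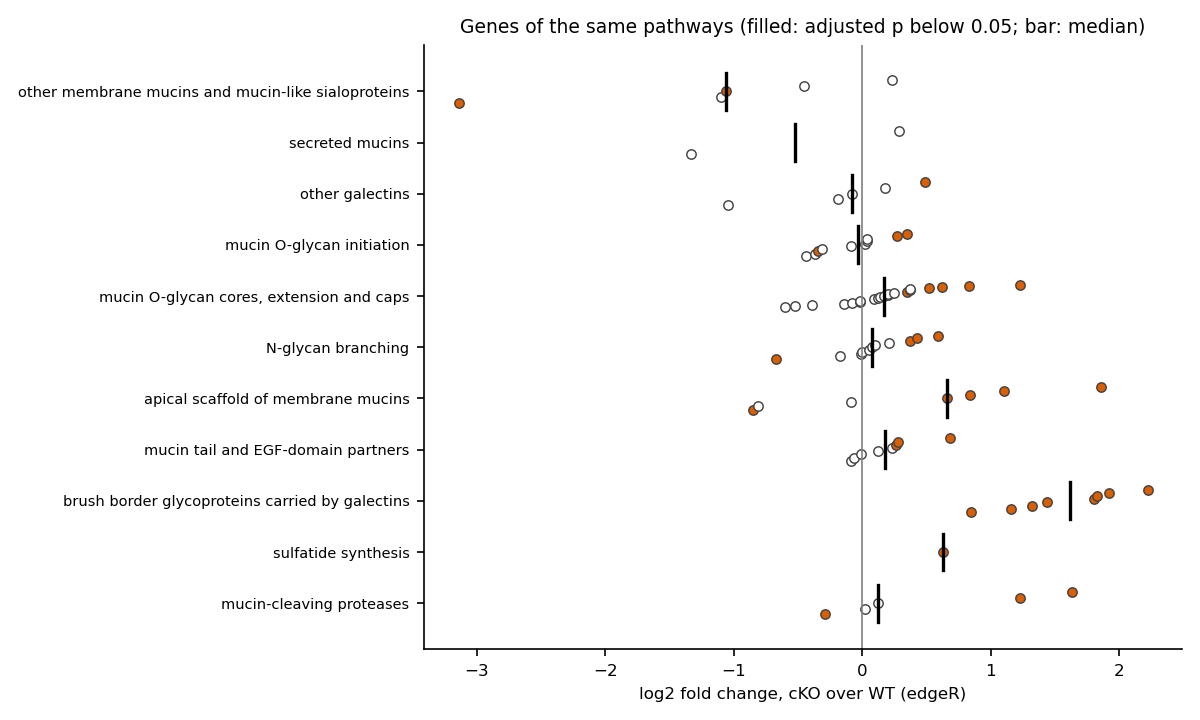
Log2 fold change of cKO over WT (x axis) for every tested gene of 11 lists around the mucins and galectins (y axis), with 1 point per gene, filled where the adjusted p was below 0.05, and the median as a bar. The 8 brush border glycoproteins are all filled, around a median of 1.62, whereas the lists of glycan enzymes have medians between -0.04 and 0.17.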

How the data were processed

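Reads of 10 jejunal crypt libraries were processed by the authors with the nf-core RNA-seq pipeline, in which STAR aligns and RSEM estimates expected counts against the Ensembl annotation of GRCm38. The authors deposited, per library and gene, expected counts that are not normalized between libraries, TPM, FPKM, length and effective length. RSEM divides shared reads among genes; the strand setting is not given in the sources used here. FPKM, as deposited, were not used.

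Symbols came from GENCODE M21 of the same build (54723 of 54838 identifiers; the others held 0.0193% of counts). Expected counts were rounded and tested with edgeR 4.0.16 in R 4.3.3 (filterByExpr with a minimum count of 10, TMM, robust quasi-likelihood test, genotype alone, since the time term of the study's DESeq2 model has 1 level here). A gene at 1 CPM has about 30 counts, and intervals of such genes are wide. TPM were compared as deposited. On simulated data of 14719 genes, 88 of 100 genes changed by 1 and 96 of 100 changed by 2 on the log2 scale were recovered, with 3 false calls. The changed genes were drawn from those of higher counts and were far fewer than the genes called in the data. No libraries with stomach transcripts were simulated. The recovery thus does not extend to genes near 1 CPM or to that difference between libraries. No replicate pair was a duplicate, since counts differed by far more than sampling noise.

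The 7 genes, the gene lists and the motifs were chosen with earlier results of these data known. Named genes were the 7, Arid3a, every tested gene of the other mucin and galectin lists, per list and direction the 3 largest called changes with a mean of at least 5 CPM, and for each of the 7 the 2 genes of highest correlation among those with at least 10 CPM; Ezr, Slc9a3r2, Sis, Mgam, Mgat5, Ctnnb1, Adam10, Adam17 and the marker genes were named outside this rule after their values were seen. Alternatives were other scalings, filters and tests, the replicate number as a block, TPM in limma 3.58.1 and leaving out each mouse; the fits without the libraries that hold stomach transcripts, the covariate for those transcripts and the ratio to villus enterocyte markers were added after seeing the data.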

Additional observations from a re-analysis of the deposited data

Results flagged for a closer look

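In 4 of 40 groups of 5 mice 1 value lay far from the others, measured as its gap to the nearest mouse over the range of the group; chance does this in about 1 in 20 groups. Muc13 was at 1937 CPM in cKO replicate 1, with the next mouse at 1448 CPM. Muc1 was at 1.19 CPM in cKO replicate 4, the cKO library with stomach transcripts, against 0.337 CPM in the next. Lgals2 was at 1105 CPM in that same library, below the next at 1342 CPM. The mean transcript length of Muc3 was 1806 bases in cKO replicate 3, where the next mouse had 1843 bases.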

How the results depend on the processing

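The calls of Muc3 and Lgals3 held under 12 other scalings, filters and tests and in all 10 fits without 1 mouse (Muc3 2.23 to 2.58, Lgals3 1.03 to 1.45 on the log2 scale), and that of Lgals3 ended without the 4 libraries with stomach transcripts. Muc1 kept its call in 10 of the 11 of these that could test it and lost it with no filter on low counts (adjusted p = 0.113). Lgals2 changed sign, never passing the test: -0.08 on library size alone, -0.04 with log2(TPM + 0.1) and -0.04 with log2(TPM + 1) in limma, -0.01 without WT replicate 3 (-0.01 to 0.12 without single mice), and -0.05 with the stomach transcripts as a covariate. Differences in the mean length of Muc13, under 1 base, also changed sign, at -0.025 to 0.0455 bases without single mice. Of the 7 genes, 1 was called without the 4 libraries. Over all genes, 423 were called without the 4 libraries and 2405 with the covariate, against 4167, and 3007 to 4684 without single mice; without WT replicate 4, 1131 genes were lower, against 1869. Library size alone moved the median of all genes to -0.162 on the log2 scale, with 1541 genes higher and 4030 lower; in limma on log2(TPM + 0.1) 1405 were higher and 2740 lower, against 2298 and 1869. Replicate numbers are shared by both genotypes but did not pair the mice (correlations of deviations -0.157 to 0.131); with the replicate number as a block 3052 genes were called, Muc3 (2.43), Lgals3 (1.26) and Muc1 (-2.31) among them. Muc1, with 4 to 97 counts, could not be tested with at least 10 counts in every library, and its values are limited by depth.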
